A study of Homo sapiens with 10 samples.

Results

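Glutathione transferases join the thiol of glutathione to electrophilic compounds, which makes these compounds more soluble and marks them for export from the cell. The soluble enzymes fall into classes named by Greek letters, among them pi (GSTP1), mu (GSTM2, GSTM3 and GSTM4), alpha (GSTA4) and omega (GSTO1). The kappa enzyme GSTK1 sits in mitochondria and peroxisomes, and the microsomal enzymes MGST1, MGST2 and MGST3 belong to a separate family of membrane proteins. GSTP1 is a major transferase of many epithelial tumors, lung tumors included, and several of these genes are known to respond to Nrf2, the transcription factor that Keap1 holds in check.

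The 10 genes described here were taken by symbol and matched to Ensembl identifiers among the 58037 of the deposited gene tables, and all 10 were found. The study compared A549, a human lung adenocarcinoma cell line, with A549/DDP, A549 cells that are resistant to cisplatin (DDP). Each line had 2 input libraries of RNA that was not pulled down and 2 m6A-seq libraries, in which RNA fragments were pulled down with an antibody against N6-methyladenosine. Both lines were grown in the same medium without a transgene or knockdown named in the labels, and each stands for a single resistant or parental line. The paper bought A549 from a company and received A549/DDP as a gift from a researcher elsewhere. It does not state that these A549 cells gave rise to A549/DDP, so "parental" here means only A549. Resistance and the source of the cells cannot be told apart. The labels do not say that replicates came from separate cultures, so the p-values measure the spread between these libraries, which may be technical. A second pair of A549 inputs, whose titles differ from the first by a full stop, entered only as an alternative. The m6A-seq libraries are given by the replicate numbers of the labels, which are exchanged for A549 relative to the file names.

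The 4 inputs that were tested held between 29225501 and 35286514 expected counts. Of the epithelial markers, EPCAM was between 2.45 and 6.95 TPM in the 4 libraries (TPM, an expression level scaled for transcript length and depth), KRT8 was at 2028 and 5231 TPM in A549 and at 9818 and 9891 TPM in A549/DDP, and KRT19 was at 33.3 and 64.0 TPM in A549 and at 9.24 and 0 TPM in A549/DDP. CDKN2A, which A549 cells lack, was at 1.03 TPM or less. The summed level of the 5 epithelial markers ran from 3684 to 7921 TPM in A549 and from 14736 to 14741 TPM in A549/DDP. None of the 4 blood and 3 endothelial markers reached 1 TPM in any of the 4 inputs, and the 4 fibroblast markers summed to between 3.46 and 21.6 TPM, the highest value in A549/DDP replicate 1. The part of these markers in the results was not tested.

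MGST1 and GSTP1 held most of the transferase RNA in both lines. Ordered by TPM, which allows genes of different length to be compared, MGST1 led in A549 with 726 ± 92.1 TPM (SD, n = 2), ahead of GSTP1 with 447 ± 9.60, MGST3 with 62.7 ± 6.05, GSTK1 with 56.7 ± 3.64 and GSTO1 with 33.3 ± 10.9. GSTM4, GSTA4, GSTM3 and MGST2 followed between 8.58 and 10.2 TPM on average, and GSTM2 came last with 1.19 ± 0.233 TPM. In A549/DDP the order of the first 5 was the same, from MGST1 with 1301 ± 146 TPM and GSTP1 with 860.5 ± 35.2 to MGST3 with 217 ± 81.5, GSTK1 with 156 ± 9.02 and GSTO1 with 89.8 ± 24.5. MGST2 with 60.9 ± 38.5 TPM and GSTM4 with 44.7 ± 19.2 TPM came next there, ahead of GSTA4, GSTM3 and GSTM2. The libraries of MGST3 and GSTK1 overlapped in either line, and so did those of GSTM4, GSTA4, GSTM3 and MGST2 in A549, so that the order within these groups does not exceed the spread. In A549/DDP the libraries also overlapped between GSTO1 and MGST2, between MGST2 and GSTM4, and between GSTA4 and both GSTM3 and GSTM2.

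**Figure D1:**
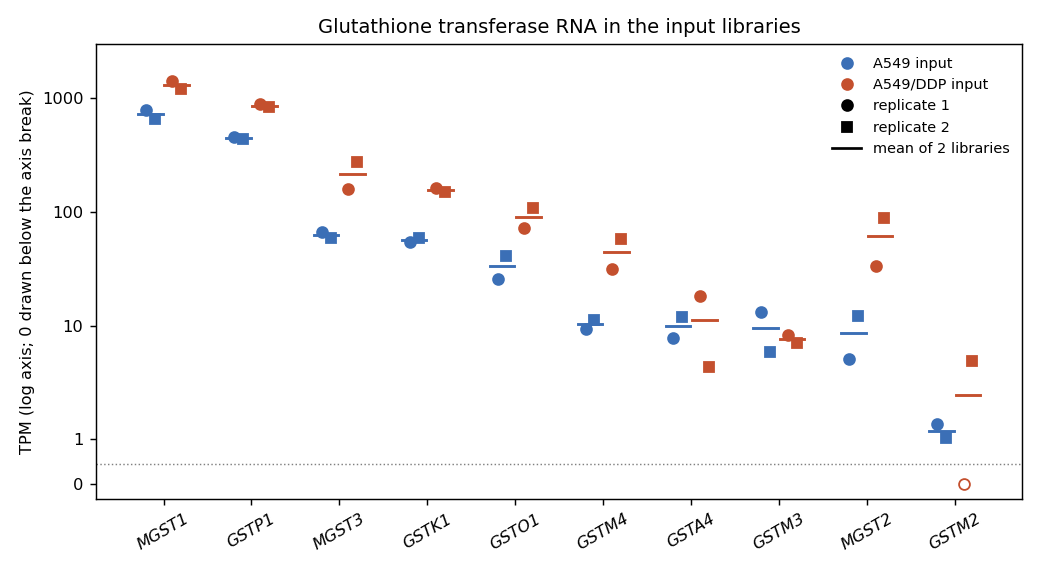
TPM of the 10 transferase genes on a log axis in the A549 and A549/DDP input libraries, with a point per library and a line at the mean of 2 libraries. For 7 genes both A549/DDP libraries lie above both A549 libraries, while those of GSTA4, GSTM3 and GSTM2 overlap, and the open point below the dotted line is the A549/DDP library in which GSTM2 was listed at 0.

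The summed TPM of the 10 genes was 1429 and 1302.5 in the A549 libraries and 2776 and 2728 in the A549/DDP libraries. The mean sum was 1366 ± 89.5 TPM in A549 and 2752 ± 34.2 TPM in A549/DDP (SD, n = 2), a ratio of 2.01, and the libraries of the lines did not overlap. An exact permutation test gave a two-sided p of 0.333, the smallest that 2 libraries against 2 allow. Since libraries that do not overlap always give this value, the test cannot decide whether the sums differ. MGST1 and GSTP1 together made up 87.2% and 84.6% of the sum in A549 and 82.5% and 74.5% in A549/DDP. The share of MGST3 was 4.69% and 4.49% in A549 and 5.74% and 10.1% in A549/DDP. Of these, MGST1 led GSTP1 only on the scale that corrects for length. By expected counts GSTP1 led in each of these 4 inputs, with 8590 and 7976 counts in A549 against 5412 and 4302 for MGST1, and the abundance-weighted transcript length of MGST1 was 409.6 and 429 bases there.

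To ask which transferases differ between the resistant and the parental line, the expected counts of the 4 inputs were compared in edgeR's quasi-likelihood test, with p-values adjusted over 16406 genes. Of the 10 members, which all passed the filter on low counts, 7 rose in A549/DDP, namely GSTP1, GSTM4, GSTK1, GSTO1, MGST1, MGST2 and MGST3, and none fell. Of all genes tested, 14.9% were called in either direction and 6.85% were called higher in A549/DDP. In the same 7 members both A549/DDP libraries were above both A549 libraries in CPM (counts scaled to library size, after TMM normalization), a pattern that 29.7% of all genes showed. The median log2 fold change was 1.23 over the 10 members and -0.0016 over all genes tested. The members were chosen with earlier results of these data known. Their count and median beside those of all genes are therefore a description, not a test of the family. In bulk RNA of this kind, fewer cells with a transcript and less of it in each cell cannot be told apart.

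Among the soluble enzymes, GSTP1 (ENSG00000084207.15, chr11:67583812-67586653) was at 454 and 441 TPM in A549 and at 885 and 836 TPM in A549/DDP. The rise was 1.87-fold (log2 fold change 0.91, SE 0.16, adjusted p = 0.0179 in edgeR), the smallest of the 7 that were called. GSTO1 (ENSG00000148834.12, chr10:104254173-104267455), an omega enzyme that reduces dehydroascorbate and methylated arsenic, was at 25.6 and 41.0 TPM in A549 and at 72.5 and 107 TPM in A549/DDP. It rose by a log2 fold change of 1.44 (SE 0.32, adjusted p = 0.0349 in edgeR). Both genes had higher values in each A549/DDP library than in either A549 library.

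In the mu class, GSTM4 (ENSG00000168765.15, chr1:109656099-109667727) was at 9.33 and 11.2 TPM in A549 and at 31.2 and 58.3 TPM in A549/DDP, and it rose by a log2 fold change of 2.06 (SE 0.43, adjusted p = 0.0284 in edgeR). Its neighbor GSTM3 (ENSG00000134202.10, chr1:109733937-109741038) was at 13.2 and 5.81 TPM in A549 and at 8.29 and 7.04 TPM in A549/DDP. The A549/DDP values of GSTM3 lay between those of the A549 libraries, with a log2 fold change of 0.07 (95% interval -2.21 to 2.35, adjusted p = 0.974 in edgeR). GSTM2 (ENSG00000213366.12, chr1:109668057-109683997) had expected counts of 28.84 and 5.28 in A549 and of 0 and 64 in A549/DDP, too few for a direction (95% interval of the log2 fold change -5.27 to 6.95, adjusted p = 0.874 in edgeR). Its non-whole counts are shared out with GSTM1, a close paralog, and the 2 genes summed to 31 and 25 counts in A549 and to 9 and 104 in A549/DDP, with a log2 fold change of 0.99 for the sum (adjusted p = 0.758 in edgeR). The other 9 members had whole counts in all 4 inputs, within a tolerance of 0.005.

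GSTA4 (ENSG00000170899.10, chr6:52977953-52995284), the alpha enzyme that conjugates hydroxynonenal and other aldehydes of lipid peroxidation, was at 5.14 and 7.93 CPM in A549. In A549/DDP the gene held the highest and the lowest value of all 4 libraries, 9.35 and 2.78 CPM. Its log2 fold change was -0.11 (95% interval -2.05 to 1.84, adjusted p = 0.954 in edgeR), and so a change of several fold in either direction was not detectable here.

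GSTK1 (ENSG00000197448.13, chr7:143263441-143269115) was at 54.2 and 59.3 TPM in A549 and at 163 and 149.97 TPM in A549/DDP. The replicates of each line lay close together, and the gene rose 2.83-fold (95% interval 2.02 to 3.96, adjusted p = 0.00857 in edgeR). It was the member whose call was kept under every alternative that was run. In those that set the second A549 pair alone against A549/DDP, GSTK1 had only 3 and 4 counts in A549.

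All 3 microsomal enzymes rose. MGST1 (ENSG00000008394.12, chr12:16347115-16593331), a protein of the endoplasmic reticulum and outer mitochondrial membrane that also acts as a peroxidase, was at 791 and 661 TPM in A549 and at 1405 and 1198 TPM in A549/DDP, with a log2 fold change of 1.02 (SE 0.20, adjusted p = 0.0239 in edgeR). MGST3 (ENSG00000143198.12, chr1:165631234-165656136) was at 67.0 and 58.4 TPM in A549 and at 159 and 275 TPM in A549/DDP, with a log2 fold change of 1.96 (SE 0.22, adjusted p = 0.00545 in edgeR), the lowest p of the 10. The A549/DDP replicates of MGST3 differed in TPM but not in CPM, where they were at 85.5 and 82.5, and the weighted transcript length was 945 bases in the first and 598 bases in the second. MGST2 (ENSG00000085871.8, chr4:139665819-139754618), which can make leukotriene C4, was at 5.03 and 12.1 TPM in A549 and at 33.7 and 88.1 TPM in A549/DDP. The log2 fold change of MGST2, 2.87 (SE 0.68, adjusted p = 0.0416 in edgeR), was the largest of the members and also had the widest interval of those called, from 1.21 to 4.53.

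**Figure D2:**
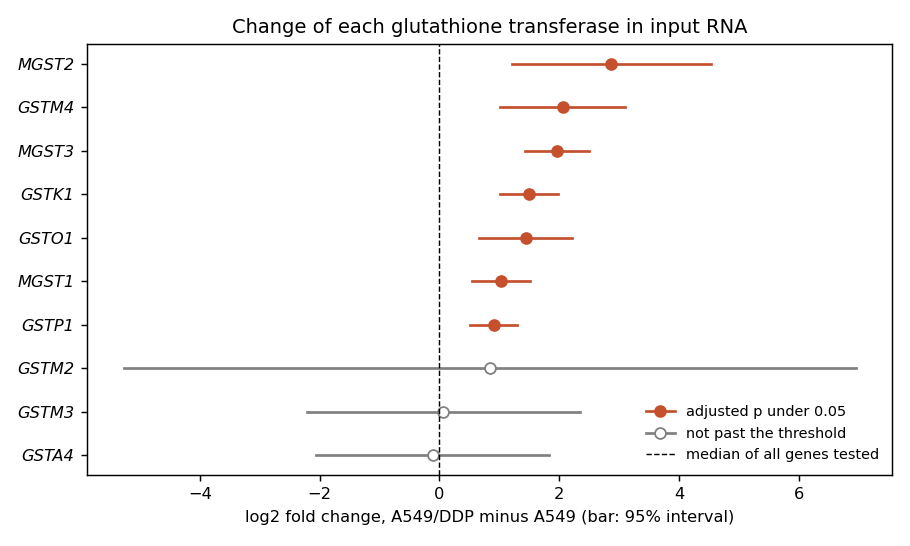
Log2 fold change of each transferase gene in A549/DDP against A549 input RNA, with its 95% interval, and the median of all genes tested as a dashed line. The 7 filled points passed an adjusted p of 0.05 and lie between 0.91 and 2.87, and the intervals of GSTM2, GSTM3 and GSTA4 cross 0.

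Several of these calls were lost when an A549/DDP library was left out, where fewer of all genes were called too. Without A549/DDP replicate 2, 3 members were called (GSTM4, GSTK1 and MGST3), beside 11.1% of all genes. There GSTP1 and MGST1 had log2 fold changes of 0.92 and 0.99, with an adjusted p of 0.0826 and 0.0805 in edgeR. Without A549/DDP replicate 1, 5 members and 11.2% of all genes were called, and GSTP1 and MGST1 had log2 fold changes of 0.87 and 1.03, with an adjusted p of 0.0992 and 0.0741 in edgeR. With the second A549 pair in place of the first, GSTP1 and GSTK1 were called, beside 27.2% of all genes. In that pair GSTK1 had only 3 and 4 counts. GSTM4 also passed there, but it was at 0 counts in both libraries of that pair and could enter the test only through A549/DDP. MGST3 then had a log2 fold change of -0.42, while the median of all genes was 0.80.

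Transcript length, a readout that the choice of genes did not use, was compared as the length in the gene tables weighted by isoform abundance. Of 9 members with a value, 0 were called in limma, and 0 also had an unadjusted p under 0.05. Of all 11743 genes tested 0.0% were called, and 1111 had an unadjusted p under 0.05. GSTM3 had the largest log2 length difference, 0.40 (SE 0.18), from 718 and 678 bases in A549 to 796 and 1060 bases in A549/DDP, with an adjusted p of 0.650 in limma.

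The other transferases and their relatives in the same membrane family were mostly at low counts. Of 17 such genes, of which 16 were matched, 6 passed the filter on low counts, and 0 were called in edgeR or in DESeq2. The 3 most abundant were GSTZ1, an enzyme of tyrosine breakdown, at 40.7 and 44.7 TPM in A549 and 78.0 and 31.5 TPM in A549/DDP, PTGES, which makes prostaglandin E2, at 25.8 and 53.3 against 48.2 and 64.1 TPM, and GSTCD at 12.8 and 22.8 CPM against 15.8 and 29.2 CPM. In the wider glutathione route, 7 of 29 tested genes rose and none fell, with a median log2 fold change of 0.48 over the 29. Over all genes tested, 6.85% were called higher in A549/DDP, and the median was -0.0016. This list, too, was chosen with earlier results of these data known. The 7 route genes that rose were GCLM, GGT1, ABCC2, ABCC5, GPX1, GPX2 and GPX3. The largest were GPX2, a selenium-dependent glutathione peroxidase, with a log2 fold change of 3.76 (SE 0.37, adjusted p = 0.00392 in edgeR) and GGT1, which cleaves glutathione at the cell surface, with 1.65 (SE 0.20, adjusted p = 0.00727 in edgeR). GCLM, the modifier subunit of the rate-limiting enzyme of glutathione synthesis, followed with 1.62 (SE 0.22, adjusted p = 0.00879 in edgeR), and ABCC5, an export pump, with 1.56 (SE 0.37, adjusted p = 0.0414 in edgeR). Over the alternatives the count for this list ran from 1, with both A549 pairs, where 4.1% of all genes were called, to 14, without A549 replicate 2, where 20.7% were called. Of these 14 genes 12 were higher and 2 lower in A549/DDP.

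The start regions of the members are shown because 7 of them were called higher in A549/DDP. RefSeq promoter windows (GRCh38.p14) of 250 bases before and 50 after a start were at hand for 9 members, in 11 windows. They were searched on both strands for TGACNNNGC, the core of the antioxidant response element that Nrf2 binds, and for TGANTCA, an AP-1 site, which can overlap the former. A match to TGACNNNGC was found in 4 of the 11 windows, those of GSTP1, GSTO1 and GSTA4 and 1 of the 3 of MGST1, and 13.3% of all 35116 windows hold such a match. TGANTCA was found in the window of GSTP1 alone, 1 of 11, against 7.71% of all windows. The sequence before the start is given here for the 3 members with a match upstream, on the strand of the gene, with TGACNNNGC matches in capitals.
GSTP1, chr11:67583562-67583811, plus strand: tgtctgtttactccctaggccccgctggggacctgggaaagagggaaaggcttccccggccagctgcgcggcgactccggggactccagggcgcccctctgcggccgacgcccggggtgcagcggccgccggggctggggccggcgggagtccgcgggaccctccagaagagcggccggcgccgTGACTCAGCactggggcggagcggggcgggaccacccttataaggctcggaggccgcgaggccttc
GSTO1, chr10:104254642-104254891, plus strand: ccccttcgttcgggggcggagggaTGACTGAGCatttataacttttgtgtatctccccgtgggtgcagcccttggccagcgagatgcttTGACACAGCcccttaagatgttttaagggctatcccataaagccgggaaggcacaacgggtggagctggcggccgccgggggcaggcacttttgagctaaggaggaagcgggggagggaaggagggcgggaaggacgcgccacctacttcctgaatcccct
GSTA4, chr6:52995285-52995404, minus strand: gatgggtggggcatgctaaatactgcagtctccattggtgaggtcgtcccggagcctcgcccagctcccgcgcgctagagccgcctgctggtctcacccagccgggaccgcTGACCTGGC
In GSTP1 the match lies from -66 to -58 relative to the start and contains the TGANTCA match, from -66 to -60. GSTO1 has a pair of matches, from -226 to -218 and from -161 to -153, and that of GSTA4 lies from -9 to -1, directly before the start. The start of the GSTO1 window lies downstream of the gene start given above (chr10:104254173). Its matches are therefore upstream of that window start but inside the gene span. The remaining match, of MGST1, lies from 30 to 38, after the start. GSTP1, GSTO1 and MGST1 were called higher in A549/DDP and GSTA4 was not, and GSTM4, GSTK1 and MGST3 were called without a match in these windows. MGST2, which was called too, had no window to search. The part of these matches, or of Nrf2, in the calls was not tested.

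For the m6A-seq libraries the deposited lists give called peaks only, with exon blocks, a gene and a p-value, and the read depth behind them is unknown. The 10 members had 49 peaks in all, at 7 of the genes, and GSTM2, GSTM4 and MGST3 had none in any list, as did 43.0% of the genes tested. The list of A549 replicate 1 held a peak at 5 members, where 43.7% of the genes tested had one, and that of A549 replicate 2 at 2 members against 30.6%. In A549/DDP, 6 members had a peak in replicate 1 against 40.7% of the genes, and 4 in replicate 2 against 22.2%. These lists were of unequal length, with 26320 and 14576 peaks in A549 and 27244 and 10661 peaks in A549/DDP, and in both lines it was the longer list that held more members.

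GSTP1 and GSTK1 were marked in all 4 lists, as were 13.9% of the genes tested. GSTP1 had 2 peaks in either A549 list, and 4 and 2 in those of A549/DDP. Merged where exon blocks shared at least 1 base, these gave 4 regions, and the region chr11:67586316-67586562, 2504 to 2750 bases after the gene start, had a peak in every list, although the blocks of all 4 lists had only 1 base in common. The p-values of the GSTP1 peaks ran from 8.5e-05 to 0.013, so that none was left at a p-value of 1e-05 or below. GSTK1 had 3 peaks in either A549 list, and 6 and 2 in those of A549/DDP, over 5 regions. Its most 3' region, chr7:143265174-143269511 with 896 covered bases, was the other with a peak in all 4 lists, which had 301 bases in common. The region chr7:143264776-143265075 was called in both A549/DDP lists only. The GSTK1 peaks in A549/DDP replicate 1 had p-values of 0.0015 to 0.0052, so that none was left there at 1e-05 or below. In the other lists the GSTK1 peaks had p-values of 8.3e-07 or below.

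MGST1 and GSTA4 had peaks in both A549/DDP lists and in neither A549 list, a pattern found in 1.97% of the genes tested. At MGST1 there were 4 and 3 peaks, and the regions chr12:16347702-16348964 and chr12:16364139-16364388 were called in both A549/DDP replicates. The former had p-values of 0.0079 and 1.9e-05 in replicates 1 and 2, and the latter had 2.6e-07 and 1.9e-06. At GSTA4 there were 2 peaks in each A549/DDP list, and chr6:52984576-52987392 was called in both, with p-values of 1.6e-05 and 2.8e-06. At a p-value of 1e-05 or below, GSTA4 kept its peaks in A549/DDP replicate 2 alone. The input RNA of MGST1 was higher in A549/DDP as given above, whereas that of GSTA4 was 9.89 ± 2.99 TPM in A549 and 11.3 ± 9.79 TPM in A549/DDP (SD, n = 2), and the part of RNA level in these peak calls was not tested.

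The other peaks followed the longer list of each line. GSTO1 had 3 peaks in A549 replicate 1 and 4 in A549/DDP replicate 1, MGST2 had 3 and 2 in the same libraries, and neither gene had a peak in a second replicate. At GSTO1, 3 of 4 regions were shared between those lists, and the region chr10:104254941-104255063 had the same exon blocks in each. GSTM3 was marked in A549 replicate 1 alone, with 2 peaks of 101 bases each at chr1:109736781-109736881 and chr1:109738108-109738301. Over all members the peaks merged into 26 regions, and while 2 of these were found in all 4 lists, 11 were found in a single list.

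**Figure D3:**
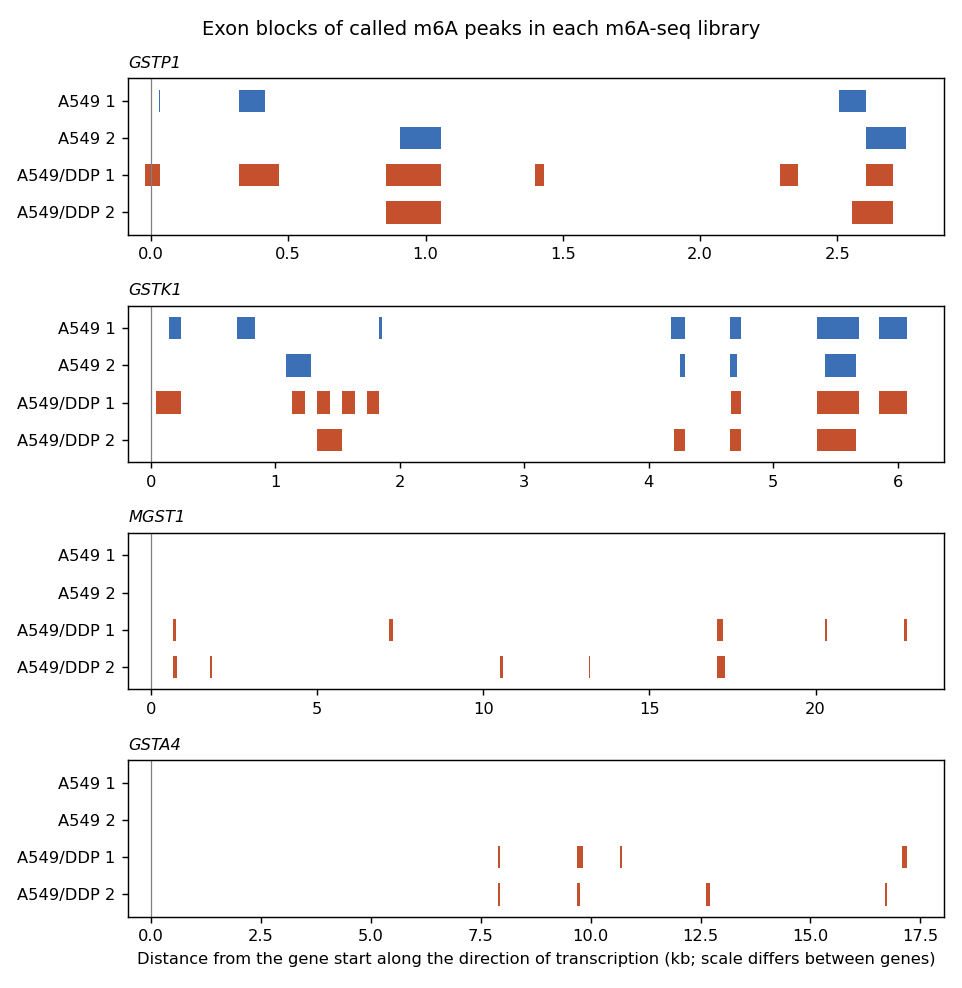
Exon blocks of the called m6A peaks at GSTP1, GSTK1, MGST1 and GSTA4 in each m6A-seq library, by distance from the gene start in kb along the direction of transcription (the scale differs between genes). At GSTP1 and GSTK1 all 4 libraries have blocks near the right end, and at MGST1 and GSTA4 the A549 tracks are empty.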

How the data were processed

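Input RNA and m6A-pulled-down RNA of A549 and A549/DDP cells were sequenced as strand-specific paired-end libraries. Each deposited input table gives the authors' RSEM-style gene values (expected counts, TPM and FPKM), where the expected counts are not normalized and TPM and FPKM are scaled for length and depth. For each m6A-seq library the authors deposited a peak list with exon blocks and a p-value, without saying whether it is adjusted. The submitters' processing notes name STAR, RSEM, bedtools and hg38; the peak caller is not given in the sources used here. RefSeq gene positions and promoter windows were those of GRCh38.p14, and coordinates are counted from 1. No genome sequence beyond these windows, no exon annotation and no protein sequence was used here.

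After rounding, expected counts passed filterByExpr, were TMM-normalized and entered edgeR 4.0.16 (R 4.3.3) across 16406 genes, with Benjamini-Hochberg adjustment at 0.05. SE is the size of the log2 fold change over the square root of F. Transcript length was tested with limma 3.58.1. DESeq2 1.42.0, limma on log2(TPM + 1) or log2(TPM + 0.1), other filters, the second A549 pair, a replicate block and leaving out each library were alternatives. The scripts were tested on simulated data. Named genes were all 10 members, relatives that were called, and the 4 called route genes with the largest change and a mean of at least 5 CPM; the 3 relatives given with values, and 3 further called genes, were named after their values were seen. Members and lists were chosen with earlier results of these data known. The sum of GSTM1 and GSTM2 and the second pair without mitochondrial genes were added after seeing the data. Intervals of counts are exact Clopper-Pearson intervals at 95% and cover counting error only.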

Additional observations from a re-analysis of the deposited data

Results flagged for a closer look

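The second pair of A549 inputs, which entered the comparison above only as an alternative, held 211799 and 256064 expected counts outside mitochondrial genes, and 3 counts there correspond to 14.2 and 11.7 CPM of these. GSTP1, MGST1 and MGST3 were the members with more than 3 counts in both libraries. GSTP1 had 6 and 25 counts, or 28.3 (95% interval 10.4 to 61.7) and 97.6 (63.2 to 144) CPM outside mitochondrial genes, where the first pair was at 244 and 231. MGST1 had 22 and 29 counts, or 104 (65.1 to 157) and 113 (75.8 to 163) CPM, against 153 and 125 in the first pair. MGST3 had 11 and 16 counts, or 51.9 (25.9 to 92.9) and 62.5 (35.7 to 101) CPM, against 21.7 and 20.5 in the first pair. GSTP1 was thus lower and MGST3 higher than in the first pair in either library beyond counting error, and these differences were not tested over replicates.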

How the results depend on the processing

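The median log2 fold change of the members ran from 1.06 to 1.59 over 14 alternatives. Its upper end came from the second A549 pair, where the median of all genes was itself 0.80. GSTM3 and GSTM4 entered that fit only through A549/DDP, with 0 counts in the pair, where GSTK1 had 3 and 4 counts. GSTK1 was called in all 14 alternatives, and GSTM4 in 11 of the 12 in which A549 had counts for it. GSTP1 and MGST3 were called in 11 of 14, MGST1 and MGST2 in 9 and GSTO1 in 8. The 7 calls were kept with DESeq2 size factors and in DESeq2, where 14.9% and 19.0% of all genes were called. They were also kept with no filter beyond 1 count (17.6% of all genes) and with at least 10 counts in every library (28.1%). The replicate block kept them as well (21.6%). In limma with a pseudocount of 1 and 0.1 the calls numbered 6 and 5, beside 9.69% and 7.64% of all genes. They fell to 3 with the second A549 pair, with or without its mitochondrial genes, of which GSTM4 was at 0 counts in that pair, and to 1 (GSTK1) with both pairs, and ran from 3 to 7 when a replicate was left out. Route genes called numbered 11 in DESeq2, 13 (11 higher, 2 lower) with the second pair with or without mitochondrial genes, and 1 with both pairs. The shares of all genes called in these fits are those given above. PTGES was the relative called without A549 replicate 2, so that the count ran from 0 to 1. In limma GSTM3 turned to -0.19 and -0.20 and GSTM2, with a pseudocount of 0.1, to -0.86. With the second pair MGST3 turned to -0.42 and GSTA4 to 0.55, or 0.56 without mitochondrial genes. Over the libraries left out in turn, GSTM3 ran from -0.52 to 1.00, with -0.05 without A549/DDP replicate 2, GSTA4 from -1.25 to 0.51, with 0.22 without A549 replicate 2, and GSTM2 from -7.08 to 2.65. The cause of these shifts was not tested. The deviations of same-numbered libraries had a correlation of 0.0265 over all genes tested. That value shows no pairing by number, but with 2 libraries per line it cannot exclude one at some genes. With the replicate block 3536 genes were called in place of 2437, of which 2418 are shared, and GSTM2 turned to -1.11; no member's call changed. Leaving out an A549/DDP library moved the median of all genes to -0.20 (replicate 1) and -0.11 (replicate 2). No member was called in transcript length under 7 alternatives. Members with a peak numbered 5 in A549 and 6 in A549/DDP, and 4 and 5 at a p-value of 1e-05 or below; without A549 replicate 1 they numbered 2, against 5 without replicate 2, and in A549/DDP 4 to 6. By expected counts the mean share of GSTP1 was 50.5% in A549 and 43.8% in A549/DDP in place of 32.8% and 31.3%, that of MGST1 29.5% and 27.9% in place of 53.1% and 47.3%, and that of GSTK1 7.37% and 9.62% in place of 4.17% and 5.68%. In the second pair GSTP1, MGST1 and MGST3 held 21.3%, 49.0% and 19.3%. Counts under about 100 (GSTM2, and GSTM3, GSTA4 and MGST2 in single libraries) limit the precision.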
